A study of Mus musculus with 22 samples.

Results

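The Ighd2 family, also called DSP2, is one of the larger groups of diversity (D) segments from which mouse B cells assemble an immunoglobulin heavy chain (Igh). Its members here were all sequences whose first D name in the annotation began with Ighd2, and they numbered 8038 of 16785 sequences with an assigned D and of 17178 sequences in all. They carried 10 Ighd2 names and fell into 2711 distinct clonotypes, a clonotype being one CDR3 nucleotide sequence with one V and one J segment.

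The libraries came from kidney B cells of WT C57BL/6 mice, female and between 8 and 10 weeks old, whose bladders were inoculated 2 times with uropathogenic Escherichia coli (UPEC) in 5 mice or with PBS in 6 mice. At day 56 a fluorescent anti-CD45 antibody was injected intravenously shortly before death, so that live B cells could be sorted into an extravascular fraction that the antibody had not reached and an intravascular fraction that it had labelled. Each mouse gave 1 library of each fraction, 22 in all, and both libraries of a mouse are paired. The sequences are Igh transcripts amplified with V segment primers, so no marker of B cell identity other than the receptor itself can be read from them. A larger number of cells and more RNA per cell cannot be told apart in these bulk sorts.

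A heavy chain V region is built by joining one V, one D and one J segment. Exonucleases trim the segment ends, terminal transferase adds non-templated N nucleotides at both joints, and the D segment with its joints forms the centre of CDR3, the loop that often makes most contact with antigen. A D segment can be read in 3 frames. In the Ighd2 family one frame is rich in tyrosine, one holds threonine and hydrophobic residues, and one holds a stop codon in most members. B-1a cells, a lineage seeded early in life, are known for junctions with few N nucleotides and for Ighv11-2 and Ighv12-3 receptors that bind phosphatidylcholine.

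The germline segments are shown because their likeness limits what a name can mean once the ends are trimmed. In the GRCm38 mouse genome, a C57BL/6 reference, 6 Ighd2 segments of 17 nt lie on the minus strand of chromosome 12 between 113450851 and 113475416, each annotated as an Ig D gene segment. They are given 5′ to 3′ on the coding strand, with the tyrosine codons of the tyrosine frame, which begins at the third base, in capitals. The files name germline sets of IMGT and no genome build, so these coordinates come from GRCm38 and the GENCODE annotation alone.
Ighd2-8 (chr12:113450851-113450867): tcTACTATggtaacTAC
Ighd2-7 (chr12:113456720-113456736): tcTACTATggtTACgac
Ighd2-6 (chr12:113461369-113461385): ccTACTATagtaacTAC
Ighd2-5 (chr12:113466027-113466043): ccTACTATagtaacTAC
Ighd2-4 (chr12:113470694-113470710): tcTACTATgatTACgac
Ighd2-3 (chr12:113475400-113475416): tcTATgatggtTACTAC

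Each segment codes 3 tyrosines in that frame, and Ighd2-5 and Ighd2-6 are identical, which leaves 5 distinct sequences. The names of the annotation follow IMGT and differ in part from those of the genome. Ighd2-3, Ighd2-4 and Ighd2-5 are names in both, and 2388, 925 and 1395 of their sequences matched the segment of that name (for Ighd2-5 also the identical Ighd2-6). Ighd2-1 and Ighd2-2 name no segment of the genome. Of the sequences named Ighd2-1, 93.8% had a D-REGION, the stretch assigned to D, that was an exact stretch of an Ighd2 segment of the genome, and 769 matched Ighd2-8 and no other. Of those named Ighd2-2, 93.1% matched exactly, and 436 matched Ighd2-7 alone. The 5 names Ighd2-1 to Ighd2-5 held 6885 sequences, 85.7% of the family, and 89.0% of these matched exactly. The other 5 names (Ighd2-9, Ighd2-10, Ighd2-12, Ighd2-13 and Ighd2-14) have no locus of that name in GRCm38, held 1153 sequences and matched exactly in 9.11%. No sequence named Ighd2-9, Ighd2-13 or Ighd2-14 matched. Whether allele differences, mutation or short assigned stretches lie behind these names was not tested.

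Libraries held between 96 and 1284 Ighd2 sequences. The totals behind them ran from 750 to 2134 sequences in PBS extravascular, 344 to 611 in PBS intravascular, 244 to 1102 in UPEC extravascular and 347 to 938 in UPEC intravascular libraries. Sequences were merged by barcode and carried 60005 reads within the family.

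Ighd2 made up 47.9% of the pooled sequences with a D and 42.7% of the clonotypes counted once per library. The share did not separate the compartments. In PBS extravascular libraries of mice 1 to 6 it was 60.4%, 66.1%, 32.2%, 62.5%, 40.3% and 35.9% of sequences. In the intravascular libraries of the same mice it was 43.6%, 39.7%, 41.2%, 43.1%, 43.4% and 62.8%. The extravascular values spread over a wide range and the groups overlapped, with 3 mice higher and 3 lower in the extravascular library. The means were 49.6% ± 15.1 (SD, n = 6) and 45.6% ± 8.53 (SD, n = 6), and the exact signed-rank test gave p = 0.84 (adjusted over 12 measures, p = 0.84).

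The spread was smaller when each clonotype was counted once. The PBS extravascular shares were 58.9%, 49.5%, 37.2%, 47.1%, 41.3% and 37.9%, and the intravascular shares 38.5%, 38.8%, 40.1%, 42.2%, 43.1% and 49.0%. Again 3 mice were higher and 3 lower (exact signed-rank p = 0.69). Many clonotypes of the extravascular libraries differed by 1 nt of CDR3 from a larger clonotype with the same V and J. Merging these, an alternative added after the data were seen, absorbed 47.6% of the PBS extravascular and 7.24% of the intravascular Ighd2 clonotypes. The share was then 40.7% ± 2.62 in the extravascular and 40.7% ± 2.54 in the intravascular libraries (SD, n = 6 each; exact signed-rank p = 1). Merging also joins junctions that carry different D segments. The Ighv11-2 Ighj1 junctions of Ighd2-5 and Ighd2-1 shown further below differ at 1 base and have no N nucleotide. Whether other 1 nt variants arose by separate joining, mutation, amplification or sequencing was not tested.

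**Figure D1:**
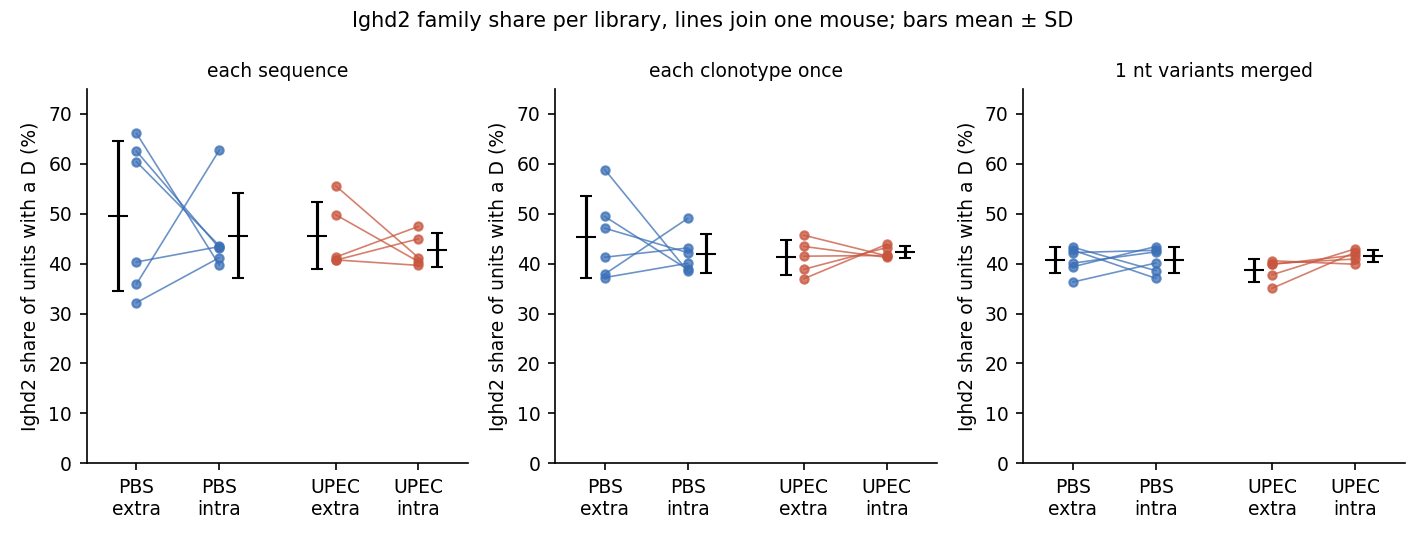
Ighd2 share of units with an assigned D (%) per library, with a line joining both libraries of a mouse and bars for mean ± SD (6 PBS mice in blue, 5 UPEC mice in red). Counted by sequence the PBS extravascular libraries run from 32.2% to 66.1%, and with 1 nt variants merged both PBS compartments centre on 40.7%.

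After UPEC the family took a similar share. Extravascular libraries of mice 1 to 5 held 40.7%, 55.6%, 40.7%, 41.3% and 49.8% of sequences, and intravascular libraries 44.97%, 41.2%, 39.6%, 47.5% and 40.4%. The extravascular values lay within the PBS range. Extravascular UPEC libraries averaged 45.6% ± 6.79 (SD, n = 5) against 49.6% in PBS (exact Mann-Whitney p = 1), and intravascular ones 42.7% ± 3.34 against 45.6% (exact Mann-Whitney p = 0.66). Within UPEC mice 3 of 5 were higher in the extravascular library (exact signed-rank p = 0.63, where 5 pairs cannot go below 0.0625). The difference between compartments changed by -1.05 percentage points with UPEC (exact permutation p = 0.92).

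Among the members, Ighd2-3 was the most frequent name with 2949 sequences, or 36.7% of the family. Ighd2-5 followed with 1422 sequences, Ighd2-4 with 1014, Ighd2-1 with 905 and Ighd2-2 with 595. Ighd2-10 had 520, Ighd2-13 had 375, Ighd2-14 had 125, Ighd2-12 had 108 and Ighd2-9 had 25. By clonotype the family was more even. Ighd2-3 then held 28.5% and Ighd2-4 21.4%, ahead of Ighd2-5 at 15.2% and Ighd2-1 at 13.1%. The most frequent clonotype, pooled over libraries, made up 30.6% of Ighd2-5 sequences, 41.9% of Ighd2-10, 30.9% of Ighd2-13 and 40.0% of Ighd2-14, but only 6.31% of Ighd2-4.

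No Ighd2 name passed the test between the compartments of PBS mice. Over the 19 D segments with at least 20 sequences in PBS libraries, 0% had an exact signed-rank p below 0.05 before adjustment, by sequence and by clonotype, and 0 of the 10 Ighd2 names did. An exact permutation test of the mean difference also called 0 of 19 by either count. Ighd2-3 averaged 17.8% ± 11 of extravascular and 9.23% ± 2.51 of intravascular sequences with a D, and was higher in 4 of 6 mice (exact signed-rank p = 0.16, adjusted over 19 segments p = 0.49). Its extravascular values ran from 2.56% to 31.2%. Ighd2-4 averaged 4.02% ± 3.604 and 8.83% ± 2.84, lower in 5 of 6 mice (exact signed-rank p = 0.094, adjusted p = 0.45). Ighd2-5 averaged 7.34% ± 9.39 and 12.2% ± 16.8, and its intravascular maximum of 46.5% belonged to mouse 6.

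The junctions of the largest Ighd2 clonotypes are shown because they hold large parts of single libraries. In each the D-REGION is in capitals, and the lower case letters before and after it come from V, J, N or palindromic P nucleotides.
PBS mouse 1 extravascular, Ighv3-3 Ighd2-5 Ighj2: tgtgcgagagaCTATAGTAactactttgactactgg
PBS mouse 6 intravascular, Ighv3-1 Ighd2-5 Ighj3: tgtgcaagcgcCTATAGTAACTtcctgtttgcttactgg
PBS mouse 4 extravascular, Ighv12-3 Ighd2-10 Ighj1: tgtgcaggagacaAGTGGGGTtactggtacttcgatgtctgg
PBS mouse 1 extravascular, Ighv12-3 Ighd2-3 Ighj1: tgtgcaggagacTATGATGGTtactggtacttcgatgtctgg
UPEC mouse 2 extravascular, Ighv12-3 Ighd2-3 Ighj3: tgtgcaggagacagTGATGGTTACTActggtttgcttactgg
PBS mouse 2 extravascular, Ighv3-8 Ighd2-3 Ighj2: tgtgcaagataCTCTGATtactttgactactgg

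The first held 431 sequences from 5139 reads, 20.2% of its library, and had no N nucleotide. The second held 228 sequences, 37.3% of its library, and had 7 N nucleotides. The third held 218 sequences or 24.5% of its library, and its 8 nt D-REGION differed from the closest Ighd2 stretch in GRCm38 at 3 bases. The fourth held 215 sequences, the fifth 196 and the last 153.
The fourth junction recurred, nucleotide for nucleotide, in 133 extravascular sequences of UPEC mouse 3. In these libraries an Ighd2 clonotype led 13 of 22, among them 3 of 6 PBS extravascular and 3 of 6 PBS intravascular libraries. For comparison, Ighd2 made up 47.9% of all sequences with a D and 42.7% of clonotypes. Of 112 clonotypes with at least 20 sequences, 56 were called Ighd2 in most of their sequences, or 50% of them. They were 34 of the 67 such clonotypes in PBS extravascular, 2 of 2 in PBS intravascular, 16 of 34 in UPEC extravascular and 4 of 9 in UPEC intravascular libraries. Clonotypes with at least 20 sequences of the family held 51.8% of Ighd2 sequences, and those of other D families 39.1% of theirs, while 83.4% and 83.0% of clonotypes were seen as a single sequence. A name was not always stable within a clonotype. In 18 of 2813 library clonotypes with an Ighd2 call some sequences were called otherwise, and the leading clonotype of PBS mouse 5 extravascular carried Ighd2-13 in 31 of its 178 sequences.

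The V segments seen with Ighd2 are given with their own D use, since a frequent V is a frequent partner. By sequence, 2145 members used Ighv12-3, 1564 Ighv3-8, 1045 Ighv3-1, 602 Ighv3-3, 572 Ighv3-6 and 459 Ighv11-2. Ighd2 was 66.9% of all sequences on Ighv12-3, 86.2% on Ighv3-3 and 83.5% on Ighv11-2, but 44.8% on Ighv3-8, 30.8% on Ighv3-1 and 47.0% on Ighv3-6, below its 47.9% over all V. By clonotype it was 60.1% on Ighv12-3, 62.2% on Ighv3-3 and 66.7% on Ighv11-2. On Ighv3-8 it was 44.6% and on Ighv3-6 43.6% by clonotype, above its 42.7% over all V, and on Ighv3-1 36.4%. Of the 602 Ighd2 sequences on Ighv3-3, 486 came from the extravascular library of PBS mouse 1. Per PBS extravascular library Ighd2 was 68.8% ± 27.9 of Ighv11-2 sequences (higher than on other V segments in 5 of 6; exact signed-rank p = 0.16), and 52.3% against 40.1% with 1 nt variants merged. By sequence it was 89.3% against 41.1% in the 5 PBS intravascular libraries with Ighv11-2. UPEC libraries had 77.1% against 34.2% extravascularly and 85.1% against 40.0% intravascularly. Each was higher in 5 of 5, but merged UPEC extravascular libraries in 3 of 5 (50.7% against 37.2%). Ighv1-53 followed with 176, Ighv1s22 with 167, and Ighv3-5 and Ighv5-17 with 121 each. By clonotype Ighv3-8 led with 422, ahead of Ighv3-6 with 341, Ighv12-3 with 327 and Ighv3-1 with 305. Ighv11-2 and Ighv12-3 together took 48.4%, 18.6%, 55.3%, 54.3%, 49.7% and 5.67% of Ighd2 sequences in PBS extravascular libraries of mice 1 to 6. The intravascular values were 10.1%, 10.4%, 10.6%, 3.14%, 5.52% and 1.05%.

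All 6 mice were higher in the extravascular library, although mouse 6 extravascular lay below 3 intravascular libraries. The means were 38.7% ± 21.1 and 6.79% ± 4.14 (SD, n = 6 each). The exact signed-rank p was 0.031, the smallest that 6 pairs allow, and was 0.13 after adjustment over 12 measures, so that the difference did not pass. By clonotype it was 22.1% ± 16.1 against 5.57% ± 3.21, higher in 5 of 6 mice (exact signed-rank p = 0.063). With 1 nt variants merged it was 9.10% ± 7.67 against 5.00% ± 3.16, higher in 5 of 6 (exact signed-rank p = 0.22), and 6.04% against 4.80% without mouse 1. In UPEC mice the values by sequence were 42.7% ± 20.9 and 15.4% ± 10.1, higher in 4 of 5 (exact signed-rank p = 0.19). With 1 nt variants merged the UPEC compartments lay closer. Mice 1 to 5 then had 15.5%, 6%, 16.9%, 3.67% and 12.2% extravascularly and 10.7%, 7.83%, 2.31%, 7.19% and 11.1% intravascularly.

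In PBS extravascular libraries 78.4% ± 22.4 of Ighv12-3 sequences carried Ighd2, against 41.6% of sequences on V segments other than Ighv11-2 and Ighv12-3 (higher in 6 of 6 mice; exact signed-rank p = 0.031, adjusted over 48 tests p = 0.10). With 1 nt variants merged the values were 70.8% ± 24.6 and 40.1%, again higher in 6 of 6 with the same p. By clonotype they were 70.5% ± 25.9 and 42.2% (higher in 5 of 6; exact signed-rank p = 0.094). In the intravascular libraries of the same mice the share by sequence was 47.6% ± 23.0 against 44.8%, with 4 of 6 higher. The extravascular Ighd2 sequences on Ighv12-3 include 218 of an Ighd2-10 clonotype in mouse 4 and 115 of an Ighd2-13 clonotype in mouse 2. Their D-REGIONs of 8 and 6 nt differed from the closest Ighd2 stretch in GRCm38 at 3 and 2 bases. This share was not taken over exact matches alone. Pooled over libraries, Ighd2-3 took 70.7% of the 2145 Ighd2 sequences on Ighv12-3 and 74.9% of their clonotypes. Per PBS extravascular library it was 60.9% ± 44.1, from 2.99% to 100%, and exceeded its share on other V segments in 4 of 6 mice. With 1 nt variants merged it was 54.9% against 18.8% there (higher in 6 of 6). By sequence it was 64.0% against 18.6% in PBS intravascular libraries (higher in 5 of 6). UPEC libraries had 88.8% against 30.8% extravascularly and 70.4% against 24.6% intravascularly (higher in 5 of 5 each). This is a description only, since Ighd2-3 was the leading name on Ighv12-3 in these data.

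On Ighv11-2 the leading names were others. Ighd2-5 took 54.0% and Ighd2-1 41.8% of its Ighd2 sequences, and 52.1% and 35.4% of its clonotypes. In PBS extravascular libraries Ighd2-5 and Ighd2-1 together held 94.1% ± 6.64 of the Ighd2 sequences on Ighv11-2 and 31.5% of those on other V segments, a description only, since the pair was chosen for leading on Ighv11-2 in these data. The 5 intravascular PBS libraries with such sequences had 100% in each. Ighv3-3 carried Ighd2-5 in 81.6% of its Ighd2 sequences, most of them the leading clonotype of PBS mouse 1, and in 60.8% of its clonotypes. Of its 79 Ighd2 clonotypes, 46 came from the extravascular library of PBS mouse 1. On Ighv3-8 the clonotypes spread over Ighd2-4 (20.9%), Ighd2-3 (20.4%), Ighd2-1 (16.4%) and Ighd2-5 (14.0%).

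The J partners were uneven by sequence. Ighj1 took 39.4%, 14.8%, 56.7%, 56.1%, 29.9% and 9.36% of Ighd2 sequences in PBS extravascular libraries and 16.1%, 22.1%, 22.1%, 22.5%, 23.4% and 6.30% in intravascular ones. It was higher extravascularly in 5 of 6 mice, with means of 34.4% ± 20.1 and 18.8% ± 6.64 (exact signed-rank p = 0.16, adjusted p = 0.38). The difference of 15.6 percentage points was 7.42 by clonotype, 8.07 without D-REGIONs under 8 nt, 0.11 with 1 nt variants merged and -3.91 without Ighv11-2 and Ighv12-3. Ighj3 averaged 10.4% ± 10.2 extravascularly and 30.7% ± 22.5 intravascularly, lower in 6 of 6 mice (exact signed-rank p = 0.031, adjusted over 56 measures p = 0.15), and by merged clonotypes it averaged 20.8% ± 3.16 and 22.8% ± 5.39. Ighj2 averaged 33.4% ± 25.8 and 24.9% ± 11.4, and Ighj4 21.8% ± 19.0 and 25.6% ± 9.01. By clonotype Ighd2-4 joined Ighj1 in 15.4% and Ighd2-3 in 28.1% of cases.

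D-REGIONs of the family were shorter in PBS extravascular than intravascular sequences. The library means of mice 1 to 6 were 8.93, 8.39, 7.72, 9.22, 8.59 and 8.82 nt extravascularly and 9.71, 9.88, 9.83, 10.2, 10.1 and 10.96 nt intravascularly, so the groups did not overlap. They averaged 8.61 ± 0.52 and 10.1 ± 0.45 nt (SD, n = 6 each; exact signed-rank p = 0.031, adjusted p = 0.13; without the pairing, exact Mann-Whitney adjusted p = 0.013). Without Ighv11-2 and Ighv12-3 the difference of -1.50 nt was -0.62 nt (exact signed-rank p = 0.22). Counted by clonotype, the means were 10.0 ± 0.31 and 10.4 ± 0.36 nt, with 4 of 6 mice lower, and with 1 nt variants merged both were 10.4 nt (exact signed-rank p = 0.84). With the largest clonotype of each library left out, which was not Ighd2 in every library and left its 1 nt variants in, the difference by sequence was -1.35 nt. Among stretches with one exact place in the germline, 5.43 ± 1.10 nt were missing from the 5′ end and 3.25 ± 1.29 nt from the 3′ end extravascularly, against 4.54 ± 0.47 and 2.24 ± 0.28 nt intravascularly (exact signed-rank p = 0.22 and 0.16). With 1 nt variants merged they were 4.58 and 1.97 nt against 4.36 and 1.98 nt.

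N additions followed the same pattern. Extravascular Ighd2 sequences of PBS mice 1 to 6 held on average 1.20, 3.24, 3.37, 2.09, 3.03 and 4.06 N nucleotides over both joints, and intravascular ones 5.40, 5.77, 5.10, 5.16, 5.40 and 6.65. Every extravascular mean lay below every intravascular one, at 2.83 ± 1.02 against 5.58 ± 0.58 (exact signed-rank p = 0.031, adjusted p = 0.13; without the pairing, exact Mann-Whitney adjusted p = 0.013). The V-D joint gave 1.53 ± 0.59 against 3.09 ± 0.36 and the D-J joint 1.30 ± 0.45 against 2.49 ± 0.63, both lower in 6 of 6 mice. By clonotype the D-J joint gave 2.88 ± 0.27 against 2.63 ± 0.43, higher in 4 of 6 (exact signed-rank p = 0.22). With 1 nt variants merged its library means ran from 1.85 to 2.64 extravascularly and from 2.07 to 2.88 intravascularly. They were then lower extravascularly in mice 1, 5 and 6 and higher in mice 2, 3 and 4. Sequences without any N made up 39.4% ± 17.4 of the extravascular and 6.80% ± 4.61 of the intravascular family (higher in 6 of 6; exact signed-rank p = 0.031, adjusted over 56 measures p = 0.15). The N-free clonotypes include 1 of 218 sequences (Ighd2-10) in mouse 4 and 1 of 115 sequences (Ighd2-13) in mouse 2. Their D-REGIONs of 8 and 6 nt differed from the closest GRCm38 stretch at 3 and 2 bases. Whether such bases were N additions was not tested.

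Counted by clonotype the mean N was 5.71 ± 0.46 against 5.84 ± 0.34 (lower in 3 of 6; exact signed-rank p = 0.69), and the N-free share 10.4% ± 3.61 against 6.18% ± 2.03 (higher in 6 of 6; exact signed-rank p = 0.031, adjusted over 56 measures p = 0.15). With variants merged the N-free share was 11.8% ± 8.01 against 5.83% ± 1.79, higher in 5 of 6, and 8.75% against 5.94% without mouse 1. The family's CDR3 was also shorter extravascularly by sequence, at 11.4 ± 0.43 against 11.9 ± 0.27 codons between the conserved residues (lower in 6 of 6; exact signed-rank p = 0.031, adjusted over 56 measures p = 0.15), but 12.2 codons in both with variants merged.

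**Figure D2:**
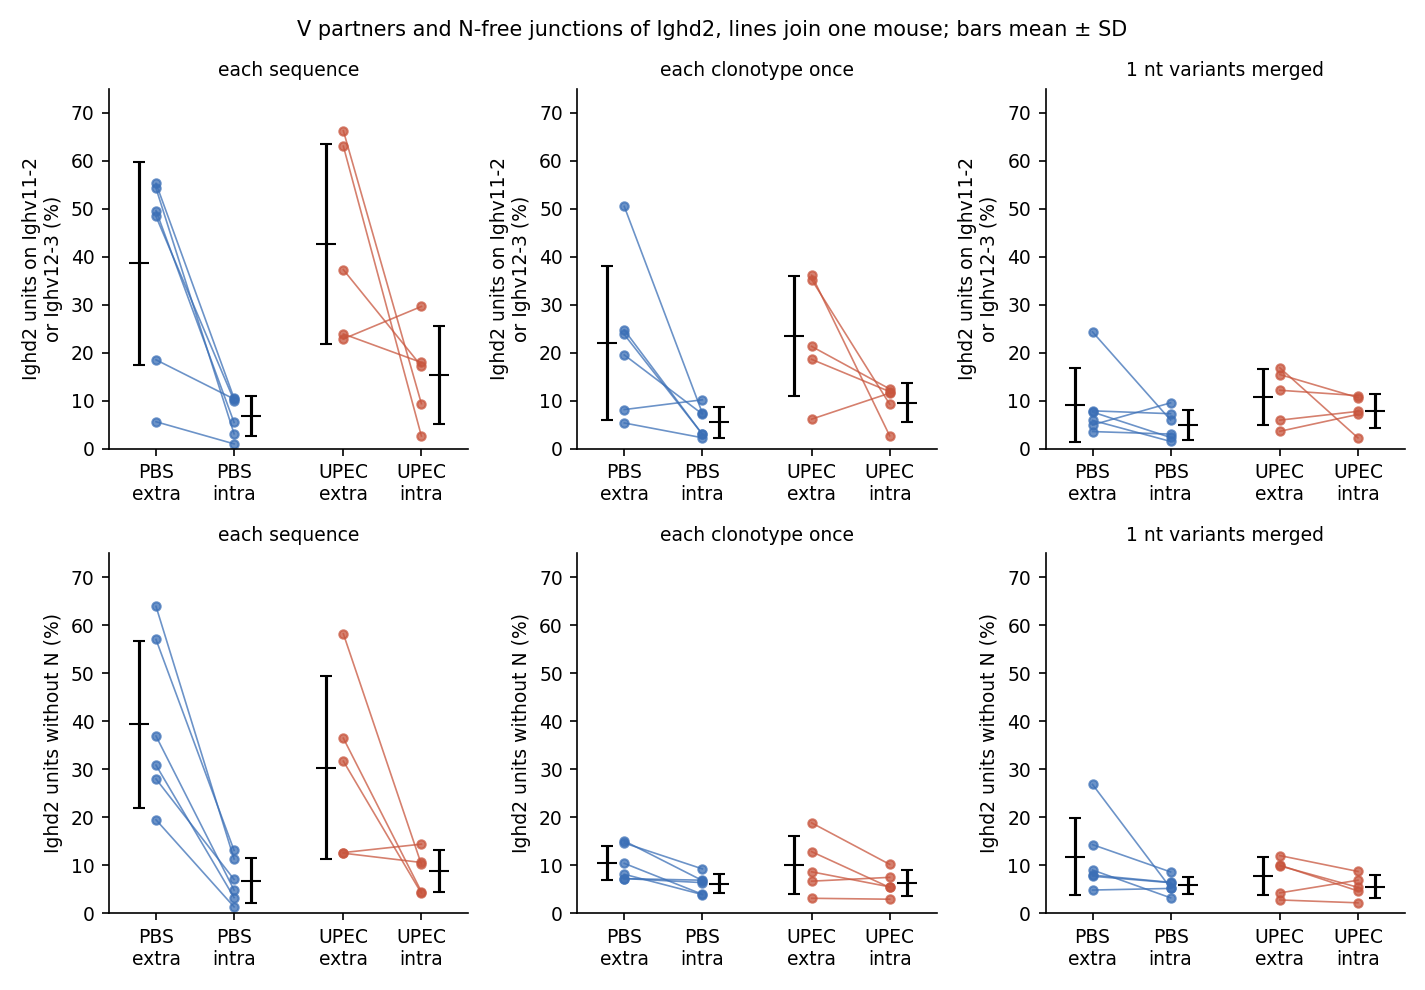
Share of Ighd2 units on Ighv11-2 or Ighv12-3 (upper row, %) and share without N nucleotides (lower row, %) per library, with lines joining a mouse and bars for mean ± SD. By sequence both are higher extravascularly in 6 of 6 PBS mice (39.4% against 6.80% N-free), and with 1 nt variants merged the N-free means are 11.8% and 5.83%.

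**Figure D3:**
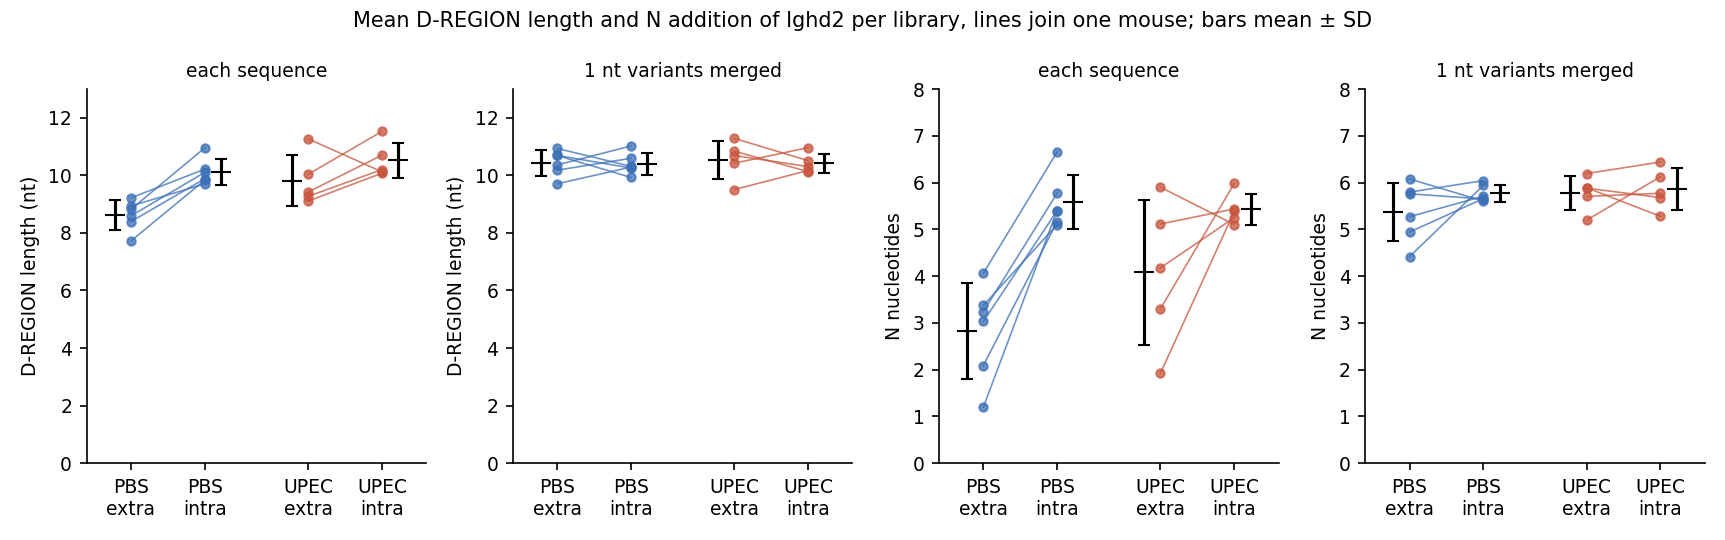
Mean D-REGION length (nt) and mean N nucleotides of Ighd2 per library, by sequence and with 1 nt variants merged, with lines joining a mouse and bars for mean ± SD. PBS extravascular means by sequence lie below all PBS intravascular means for both measures, and overlap with them once variants are merged.

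The same measures were taken in UPEC mice. By sequence, D-REGION length was 9.82 ± 0.88 nt extravascularly and 10.5 ± 0.61 nt intravascularly (lower in 4 of 5; exact signed-rank p = 0.31). N additions averaged 4.08 ± 1.55 and 5.43 ± 0.33 (lower in 4 of 5; exact signed-rank p = 0.19), with extravascular libraries from 1.92 in mouse 2 to 5.90 in mouse 4. With 1 nt variants merged, D-REGIONs were longer extravascularly in mice 2, 4 and 5, with library means of 9.51 to 11.3 against 10.1 to 10.96 nt. Merged N additions were higher extravascularly in mice 2 and 5, at 5.20 to 6.19 against 5.28 to 6.44. Counted by sequence, N additions at the V-D joint were 2.22 ± 0.73 and 3.27 ± 0.36, and CDR3 lengths 11.8 ± 0.29 and 12.4 ± 0.29 codons. Both were lower in 5 of 5 mice, with the exact signed-rank p at its minimum of 0.0625. By sequence, the compartment difference in CDR3 length was -0.51 codons in UPEC and -0.53 in PBS mice. With variants merged the PBS CDR3 means were alike, as given above, and CDR3 was longer extravascularly in UPEC mice 4 and 5. Merged V-D N additions were higher extravascularly in UPEC mice 2 and 5, and each measure was lower in the other UPEC mice. Between treatments, extravascular D-REGIONs were longer after UPEC than after PBS by 1.21 nt (exact Mann-Whitney p = 0.0087, adjusted over 12 measures p = 0.10), by 0.51 nt when each clonotype counted once (exact Mann-Whitney p = 0.25), and by 0.12 nt with 1 nt variants merged (exact Mann-Whitney p = 0.79). The compartment differences in length and in N were not shown to differ between treatments (exact permutation p = 0.12 and 0.11).

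The tyrosine frame was the main reading frame. A frame was assigned where the D-REGION fitted an Ighd2 segment of GRCm38 with at most 20% mismatched bases and in 1 frame. By this rule 6629 sequences, 82.5% of the family, were read in the tyrosine frame, 431 or 5.36% in the frame that holds a stop in most members, 134 or 1.67% in the threonine frame, and 844 or 10.5% had none assigned. By clonotype the tyrosine frame also held 82.5%, the stop frame 7.12% and the threonine frame 3.59%.

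Members differed in this. Ighd2-5 was read in the tyrosine frame in 99.4% of sequences, Ighd2-1 in 97.1%, Ighd2-3 in 93.7%, Ighd2-4 in 81.9% and Ighd2-2 in 73.3%. Ighd2-2 was in the stop frame in 17.6% and Ighd2-4 in 13.7%. The sequence that Ighd2-2 matches, Ighd2-7, has no stop in that frame. The 105 stop-frame sequences of Ighd2-2 had D-REGIONs of 5.54 nt on average. Of these, 65 were a single clonotype with a D-REGION of 4 nt, a stretch that Ighd2-3 holds as well. Ighd2-13 and Ighd2-14 were unassigned in 93.1% and 91.2%. The assigned stretch of Ighd2-13 was most often 6 or 8 nt that differed from the genome's segments at 2 bases.

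**Figure D4:**
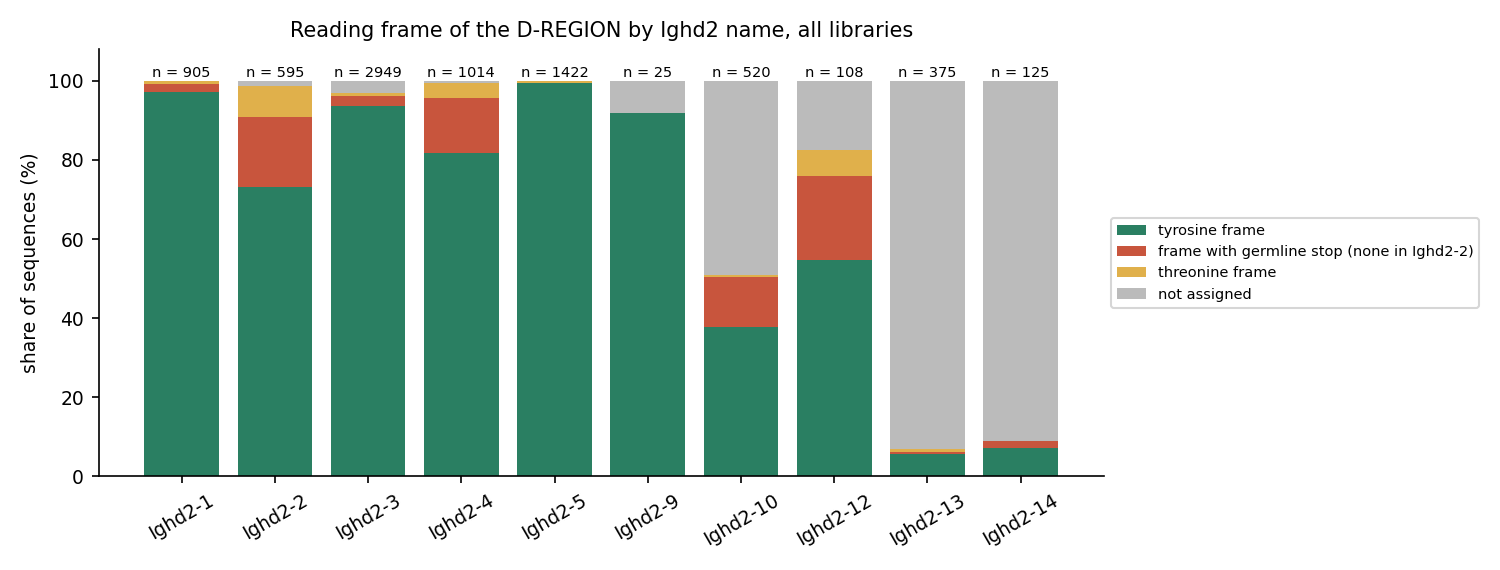
Share of sequences (%) of each Ighd2 name read in each frame over all 22 libraries, with the number of sequences above each bar. The tyrosine frame holds 99.4% of Ighd2-5 and 73.3% of Ighd2-2, and most of Ighd2-13 and Ighd2-14 have no assigned frame.

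Per library, the tyrosine frame held 99.4%, 71.2%, 86.3%, 39.9%, 81.2% and 74.4% of PBS extravascular Ighd2 sequences and 81.5%, 79.2%, 85.4%, 84.3%, 69.0% and 94.8% of intravascular ones, with 3 of 6 mice lower (exact signed-rank p = 0.69, adjusted p = 0.83). The low value of mouse 4 went with its leading Ighd2-10 clonotype, and 57.4% of its Ighd2 sequences had no frame. Over assigned sequences the means were 93.5% ± 8.61 and 89.1% ± 5.34. Counted directly over codons that lie wholly within the D-REGION, tyrosine made up 28.4% ± 9.40 extravascularly and 39.4% ± 3.32 intravascularly (lower in 5 of 6; exact signed-rank p = 0.063), and glycine 22.9% ± 7.42 and 13.8% ± 5.63 (higher in 6 of 6; exact signed-rank p = 0.031, adjusted over 56 measures p = 0.15). With variants merged glycine was 14.7% ± 3.58 and 13.7% ± 1.25. Tyrosine was 37.0% ± 4.87 and 40.6% ± 2.96 by clonotype. With variants merged it ran from 33.5% to 42.0% and from 37.2% to 45.8%, lower extravascularly in all mice but mouse 2. Aspartate was 22.3% ± 11 and 17.8% ± 6.38, with 3 of 6 mice higher.

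The share of exact matches to the genome also varied. It was 86.4%, 43.6%, 81.1%, 39.9%, 76.2% and 77.6% in PBS extravascular libraries, against 87.0% to 94.4% in UPEC extravascular ones, so these groups did not overlap (exact Mann-Whitney p = 0.0043, adjusted over 56 measures p = 0.24). They overlapped with 1 nt variants merged, at 69.8% to 85.4% against 78.0% to 83.1% (exact Mann-Whitney p = 0.40), and without the largest clonotype of each library, at 52.2% to 85.0% against 80% to 94.4%. Mouse 4 held the leading Ighd2-10 clonotype. Mouse 2 held 153 sequences of the Ighv3-8 Ighd2-3 clonotype shown above and 2 clonotypes of 116 and 115 sequences named Ighd2-13, a name with no exact match.

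A few Ighd2 junctions recurred in many mice with the same nucleotides. Of 2711 distinct Ighd2 clonotypes 31 were found in at least 2 mice and 11 in at least 3, or 1.14% and 0.41%. Of 3720 clonotypes with another D, 16 and 3 were. These counts include 1 nt variants of shared junctions. With such variants merged within each library, 13 of 2109 Ighd2 clonotypes and 13 of 3158 with another D were in at least 2 mice, and 8 and 2 in at least 3. The most widely shared junctions are shown with the D-REGION in capitals.
Ighv11-2 Ighd2-5 Ighj1: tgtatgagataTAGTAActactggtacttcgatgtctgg
Ighv11-2 Ighd2-1 Ighj1: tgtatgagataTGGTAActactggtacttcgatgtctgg
Ighv12-3 Ighd2-3 Ighj1: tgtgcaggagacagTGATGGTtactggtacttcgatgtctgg

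None of these 3 junctions had an N nucleotide. The first 2 differ at 1 base, so merging keeps at most 1 of them in a library that holds both. The Ighd2-5 junction was found in 11 of 11 mice and 21 of 22 libraries, in 199 sequences. In PBS extravascular libraries it had 43, 1, 60, 9, 4 and 5 sequences and in intravascular ones 6, 1, 1, 2, 1 and 0. In UPEC libraries it had 3, 2, 13, 34 and 1 extravascular and 1, 1, 1, 9 and 1 intravascular sequences. It was thus present at low numbers almost everywhere and at 34 or more in 3 extravascular libraries.

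The Ighd2-1 junction was found in 10 mice and 18 libraries, in 170 sequences, with 38, 5, 24, 35, 0 and 2 in PBS extravascular libraries and its highest count, 41, in the intravascular library of UPEC mouse 4. The Ighv12-3 junction was found in 6 mice and 6 libraries with 67 sequences, 50 of them in 1 UPEC extravascular library, where it was the largest clonotype. Within a mouse, 14 Ighd2 clonotypes of PBS mice occurred in both compartments, out of 833 extravascular and 776 intravascular ones, and 9 without mouse 1. With another D it was 5 out of 1001 and 1095, and 1 without mouse 1. In UPEC mice it was 26 Ighd2 clonotypes out of 522 and 682, and 16 without mouse 4. With another D it was 28 out of 756 and 928, and 8 without mouse 4. Single mice thus carried much of these counts, and no difference between the families was tested.

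**Figure D5:**
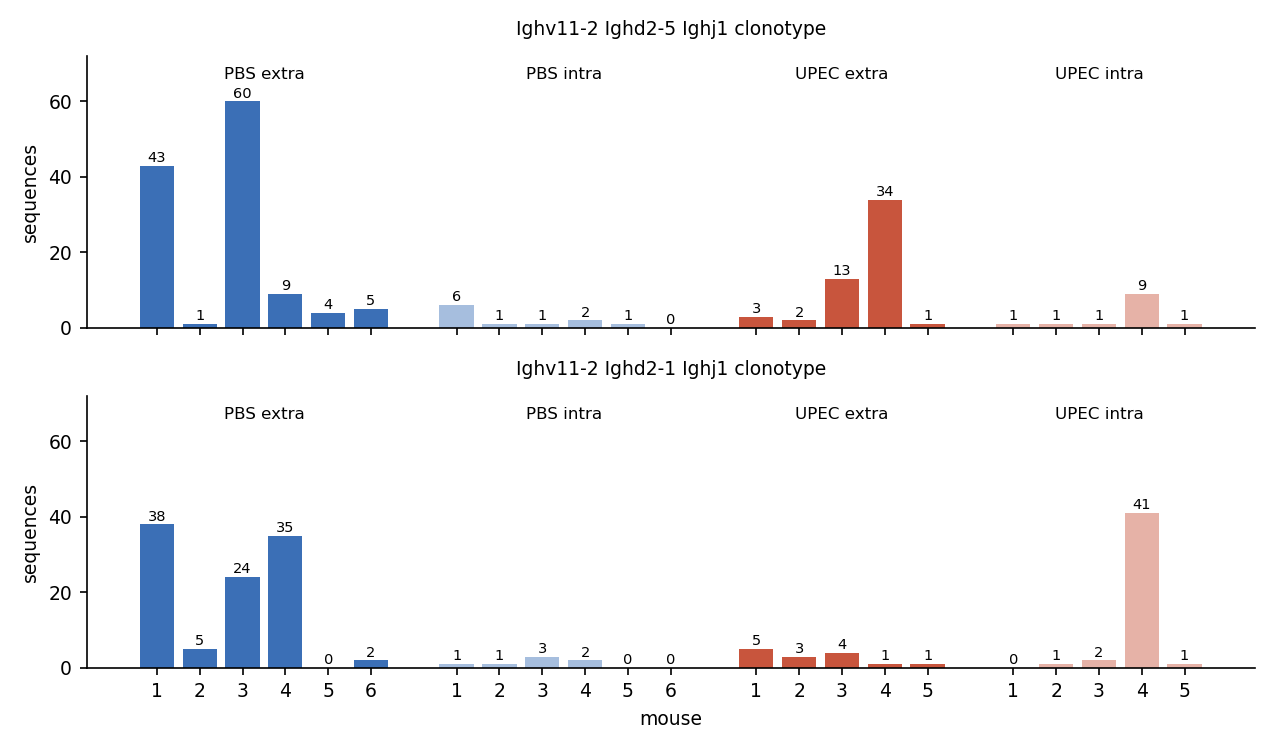
Sequences of the 2 most widely shared Ighd2 junctions, both on Ighv11-2 and Ighj1, in each of the 22 libraries, by mouse. The Ighd2-5 junction is absent from 1 library and reaches 60 sequences in PBS mouse 3, and the Ighd2-1 junction reaches 41 in UPEC mouse 4 intravascular.

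Sequences with another D in the same library were compared next. By clonotype, tyrosine took 37.0% ± 4.87 of codons within Ighd2 D-REGIONs and 24.7% ± 4.74 of those within other D-REGIONs in PBS extravascular libraries, and 40.6% ± 2.96 and 24.0% ± 3.31 in intravascular ones (higher in 6 of 6 both times; exact signed-rank p = 0.031, adjusted over 21 measures p = 0.33 and 0.25). In UPEC mice it was higher in 5 of 5 in both compartments. By sequence in PBS extravascular libraries it was 28.4% against 20.3% (higher in 4 of 6; exact signed-rank p = 0.22), and 28.4% in both Ighd2 and Ighd1 (higher in 2 of 6; exact signed-rank p = 0.84). The D-REGIONs of Ighd2 measured 10.4 ± 0.36 against 10.96 ± 0.45 nt in PBS intravascular clonotypes of other families (lower in 6 of 6; exact signed-rank p = 0.031, adjusted p = 0.25). In PBS extravascular clonotypes they measured 10.0 ± 0.31 against 10.6 ± 0.50 nt (lower in 6 of 6; exact signed-rank p = 0.031, adjusted p = 0.33). UPEC clonotypes were lower in 3 of 5 in both compartments (exact signed-rank p = 0.44 intravascular and 0.31 extravascular), and by sequence PBS extravascular libraries in 4 of 6 (exact signed-rank p = 0.22). Ighd1, whose germline Ighd1-1 has 23 nt, measured 12.6 ± 0.47 nt in PBS intravascular clonotypes. By clonotype, N additions were 5.84 ± 0.34 for Ighd2 and 5.55 ± 0.33 for other D intravascularly (higher in 5 of 6; exact signed-rank p = 0.094). Extravascularly they were 5.71 and 5.56 by clonotype (higher in 3 of 6). By sequence the PBS extravascular direction was the other way, at 2.83 and 4.33 (lower in 5 of 6; exact signed-rank p = 0.063).

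By sequence, N-free junctions were more frequent in Ighd2 than in other families in all 6 PBS extravascular libraries, at 39.4% ± 17.4 against 15.0% ± 22.2 (exact signed-rank p = 0.031, adjusted p = 0.33), and by clonotype they were 10.4% and 10.9%. The N-free Ighd2 clonotypes with D-REGIONs that differed from the genome, given above, are included. Ighj1 was joined less often to Ighd2 than to Ighd1 in PBS intravascular clonotypes, at 20.0% ± 4.29 against 28.3% ± 2.92 (lower in 6 of 6; exact signed-rank p = 0.031, adjusted p = 0.13), and was lower in 5 of 5 UPEC intravascular libraries. In PBS extravascular libraries it was 27.4% against 31.3% by clonotype (lower in 4 of 6; exact signed-rank p = 0.44) and 34.4% against 34.6% by sequence (exact signed-rank p = 0.84). Ighv1s22 also took a smaller part of Ighd2 than of Ighd1 clonotypes in intravascular libraries, at 6.54% ± 3.41 against 12.2% ± 5.49 (lower in 6 of 6 PBS and 5 of 5 UPEC mice; exact signed-rank p = 0.031 in PBS, adjusted p = 0.13), and 4.76% against 8.86% in PBS extravascular ones (lower in 5 of 6; exact signed-rank p = 0.31). With 6 mice and 21 measures no such test passed after adjustment.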

How the data were processed

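Igh transcripts of sorted kidney B cells were sequenced after V segment multiplex PCR. The authors filtered reads with QUASR, merged pairs, took a consensus per barcode, assigned constant regions by matching to IMGT, kept sequences with V and J similarity by BLAST and more than 1 read, and annotated them with IMGT/V-QUEST. The deposited tables hold 1 row per retained sequence, with no normalization. Other values, such as positions of V, D, J and junction counted from 1, are as the authors deposited them, and read counts stand in the sequence identifiers.

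Segment names were cut at the allele, and no sequence carried more than 1 D name. Shares were taken over sequences with an assigned D, and 393 sequences (2.29%) had none. Frames were placed without gaps on the 6 Ighd2 segments of GRCm38 (GENCODE vM21). For a clonotype the sequence with most reads stood in. Libraries of a mouse were compared as pairs (paired, exact two-sided signed-rank tests), as in the study's methods. Treatments were set against each other by a two-sided Mann-Whitney test, exact over 462 assignments of the mice, and the change of the compartment difference by an exact permutation test. P-values were adjusted by Benjamini-Hochberg over 12 main measures, over 19 for single D segments, or over 21, 48 or 56 where stated. The design's tyrosine frame share was replaced by the tyrosine share of D codons where Ighd2 was compared with other families.

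Named were all Ighd2 names, the 10 V segments most often joined to them with Ighv11-2 and Ighv12-3, the 4 Ighj, and Ighd2 clonotypes that led a library, had at least 20 sequences or occurred in at least 3 mice, shown by example. The members and lists were chosen with earlier results of these data known. Alternatives covered weighting, clonotype definition, filters, the test, the pairing and each mouse left out. The paired test was tested on simulated data. Tests ran in scipy 1.17.1 under Python 3.11.15, with tables in pandas 2.3.3 and sequences in biopython 1.88.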

Additional observations from a re-analysis of the deposited data

Results flagged for a closer look

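The Ighd2 share of PBS mouse 6 intravascular, 62.8% of sequences with a D, stood apart from the other 5 PBS intravascular libraries, which lay between 39.7% and 43.6%. The gap to the nearest library was 83.1% of the range of the group. In this library 1 clonotype on Ighv3-1, Ighd2-5 and Ighj3 held 228 sequences, and with 1 nt variants merged and each clonotype counted once the share was 42.4%. It was the only such library among 48 groups of values examined. Chance gives about 1 in 20, or 2.4 over these groups, so 1 such library is no more than chance would give.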

How the results depend on the processing

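The Ighd2 share's PBS difference between compartments (main value 3.95 percentage points) turned to -3.22 without Ighv11-2 and Ighv12-3, to -5.45 with exact GRCm38 matches only and to -0.035 with 1 nt variants merged, was 6.98 without the largest clonotype of each library (exact p = 0.16), and ranged from -0.55 to 10.1 with a mouse left out. By clonotype (3.33) it turned to -2.30 with exact matches and -0.035 with variants merged, and ranged from -0.074 to 6.23. In UPEC mice (2.90) it turned to -1.01 by clonotype, -5.81 without Ighv11-2 and Ighv12-3 and -2.90 with variants merged, and ranged from 0.019 to 5.17. UPEC minus PBS was -3.95 extravascularly (9.21 with exact matches, -7.43 to -0.64 with a mouse left out) and -2.90 intravascularly (0.34 by clonotype, 0.84 with variants merged, -4.09 to 0.53 with a mouse left out, positive only without PBS mouse 6). The change of the compartment difference (-1.05) turned to 0.585 without D-REGIONs under 8 nt, 0.52 without sequences under 3 reads and 9.64 with exact matches, and ranged from -7.21 to 3.45.

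The PBS difference in D-REGION length (-1.50 nt) was -1.28 weighted by reads, -0.35 by clonotype, -0.87 without D-REGIONs under 8 nt, -0.62 without Ighv11-2 and Ighv12-3 and 0.029 with variants merged. N additions (-2.75) were -0.13 by clonotype, -1.78 without short D-REGIONs, -1.89 without Ighv11-2 and Ighv12-3 and -0.39 with variants merged. The Ighv11-2 and Ighv12-3 share (31.9 points) was 16.5 by clonotype and 4.10 with variants merged. None of these had an exact p below 0.05. Without short D-REGIONs that share was 18.0, with an exact p of 0.031. With a mouse left out they ranged from -1.65 to -1.38, -2.96 to -2.46 and 28.0 to 37.3, with an exact p of 0.0625, the smallest that 5 pairs allow. The tyrosine frame share (-6.96) turned to 4.43 over assigned frames and 0.37 with variants merged, was -1.50 without the largest clonotypes, and ranged from -11.9 to 0.53, positive only without mouse 4. The Ighj1 share (15.6) was 7.42 by clonotype, 8.07 without short D-REGIONs and 0.11 with variants merged, turned to -3.91 without Ighv11-2 and Ighv12-3 and ranged from 11.8 to 20.2. The causes were not tested.

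Without the pairing (no replicate block) the exact Mann-Whitney p was 0.0022 for D-REGION length and for N additions and 0.015 for the Ighv11-2 and Ighv12-3 share. Adjusted over the 12 measures this exact p was 0.013, 0.013 and 0.061, so D-REGION length and N additions by sequence passed without the pairing and did not with it (adjusted p = 0.13). No other of the 12 passed either way. The unpaired test treats both libraries of a mouse as independent, which they are not. With the pairing, 6 pairs cannot give an exact signed-rank p below 0.031, which leaves little room to pass after adjustment over 12 measures. The setting without ambiguous D names changed nothing, since there were none. Leaving out Ighv11-2 and Ighv12-3 gives no value for their own share, and the change of the compartment difference was tested by permutation throughout. Merging, exact matches, assigned frames and leaving out the largest clonotype were chosen after seeing the data. Small libraries and 6 or 5 mice limit all of these values.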
